A study of Drosophila melanogaster with 3 samples.

Results

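YL-1 occupancy was examined at 10 genes of the ecdysone response and the nuclear receptor family in *Drosophila melanogaster* embryos. The genes were the ecdysone receptor gene EcR, its partner usp, the ecdysone-induced genes Eip75B, Eip74EF, br and Eip78C, and the nuclear receptor genes ftz-f1, Hr39, Hr78 and Hr4. They were chosen by name and function from the 13945 protein-coding genes on the 6 chromosome arms analysed, and their 37 distinct transcription start sites (TSSs) were chosen from 19607. Each TSS and gene body was compared with the summits of regions enriched in chromatin immunoprecipitation sequencing (ChIP-seq). The samples were 3 biological replicates of 1 group, whole embryos of mixed sex aged 0 to 24 h from a transgenic line (strain YL-1-GFP), precipitated with an anti-GFP antibody. All 3 carried the same stable insertion, in which the C-terminus of YL-1 carries GFP, and the labels name no untagged or differently treated group. The labels do not give the promoter of the insertion. Signal is therefore pooled over whichever cells and stages of the 0 to 24 h embryos held the tagged protein. A strong signal in few cells cannot be told apart from a weak one in many.

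YL-1 belongs to the chromatin remodelling complexes built around the ATPase Domino and the acetyltransferase Tip60, which place the histone variant H2Av in nucleosomes and acetylate histones. Ecdysone is the steroid hormone that times the moults and metamorphosis of the fly, and a pulse of it also occurs in the middle of embryogenesis. The hormone binds a heterodimer of the nuclear receptors EcR and Usp. The receptor switches on early genes, among them br, Eip74EF and Eip75B, whose products are transcription factors that act on later genes, and other nuclear receptors such as Hr4 and Ftz-f1 set the order and timing of those steps. Most of these genes are long and start from several promoters, each giving its own protein isoform or leader.

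In the list of 5986 peaks that passed the authors' threshold on the irreproducible discovery rate (IDR), 16 peaks had their summit at a TSS of the 10 genes or inside 1 of them. YL-1 stood at a start site of 5 genes (usp, Eip75B, ftz-f1, Hr39 and Hr78) and inside 5 (EcR, Eip75B, Eip74EF, ftz-f1 and Hr4). The genes br and Eip78C held no such peak. A gene is called bound here where a summit lay within 250 bp of any of its annotated TSSs, and an internal summit is one inside the gene and more than 250 bp from every TSS of that gene. Strength is given as relative signal, the deposited signal divided by the median signal of the 5986 strongest regions of the same list, and as rank in that list, where rank 1 is the strongest. The deposited signal is the authors' own value per region and its scale differs between libraries. That median was 218.5 in the IDR list and 65.1, 62.4 and 103.5 in replicates 1, 2 and 3. The 5986 strongest of the 30000 regions in each replicate are called its top regions. The 16 regions were 129 to 500 bp wide. The lists give no read counts, so the depth of each library is unknown. With 1 group and genes chosen by name, values are described and no test was made.

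Sequences are printed for the 5 start-site peaks, for the strongest internal peak of Hr4 and of Eip75B, and for the internal peak of Eip74EF, the only internal peak with the core letters of a nuclear receptor site within 150 bases of its summit. Each stretch holds the IDR summit except that of Hr78, which shows the motif 1 match near the start site and does not reach the summit. They were read from the RefSeq copy of Release 6 (dm6), 5′ to 3′ on the strand named, which for start sites is the strand of the gene. Capitals mark every match, on either strand, to the motifs described with the promoters further on. The stretches for Eip75B and Hr39 end at the base before the start site.
Eip75B-RC start site, chr3L:17999822-17999971, minus strand: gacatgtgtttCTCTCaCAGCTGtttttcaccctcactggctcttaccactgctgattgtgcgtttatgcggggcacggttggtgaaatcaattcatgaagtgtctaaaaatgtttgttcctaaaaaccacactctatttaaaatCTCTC
Hr39 start site, chr2L:21237100-21237249, plus strand: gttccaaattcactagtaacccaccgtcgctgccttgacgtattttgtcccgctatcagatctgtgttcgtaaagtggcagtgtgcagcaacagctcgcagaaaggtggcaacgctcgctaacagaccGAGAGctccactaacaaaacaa
ftz-f1-RB summit, chr3L:18801459-18801608, minus strand: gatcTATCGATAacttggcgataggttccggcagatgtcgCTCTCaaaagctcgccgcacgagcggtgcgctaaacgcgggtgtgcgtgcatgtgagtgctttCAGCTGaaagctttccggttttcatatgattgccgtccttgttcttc
usp-RA, intron before the start site, chrX:2041387-2041460, minus strand: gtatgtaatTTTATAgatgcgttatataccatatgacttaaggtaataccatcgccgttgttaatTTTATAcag
Hr78-RA start site, chr3L:21497470-21497499, minus strand: gcccaactgcGGTCACACTgctcgcaagtg
Hr4, strongest internal summit, chrX:1947665-1947814, plus strand: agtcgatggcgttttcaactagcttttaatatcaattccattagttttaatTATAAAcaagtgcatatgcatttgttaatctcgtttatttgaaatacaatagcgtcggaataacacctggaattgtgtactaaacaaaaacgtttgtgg
Eip75B, strongest internal summit, chr3L:18019735-18019884, plus strand: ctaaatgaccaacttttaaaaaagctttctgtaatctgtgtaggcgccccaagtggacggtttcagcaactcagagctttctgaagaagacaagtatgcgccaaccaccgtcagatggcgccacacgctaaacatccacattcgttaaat
Eip74EF, internal summit, chr3L:17566970-17567119, plus strand: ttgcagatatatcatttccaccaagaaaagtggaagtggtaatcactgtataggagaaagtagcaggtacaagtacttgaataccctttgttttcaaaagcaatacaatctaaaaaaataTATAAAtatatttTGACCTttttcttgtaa

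**Figure D1:**
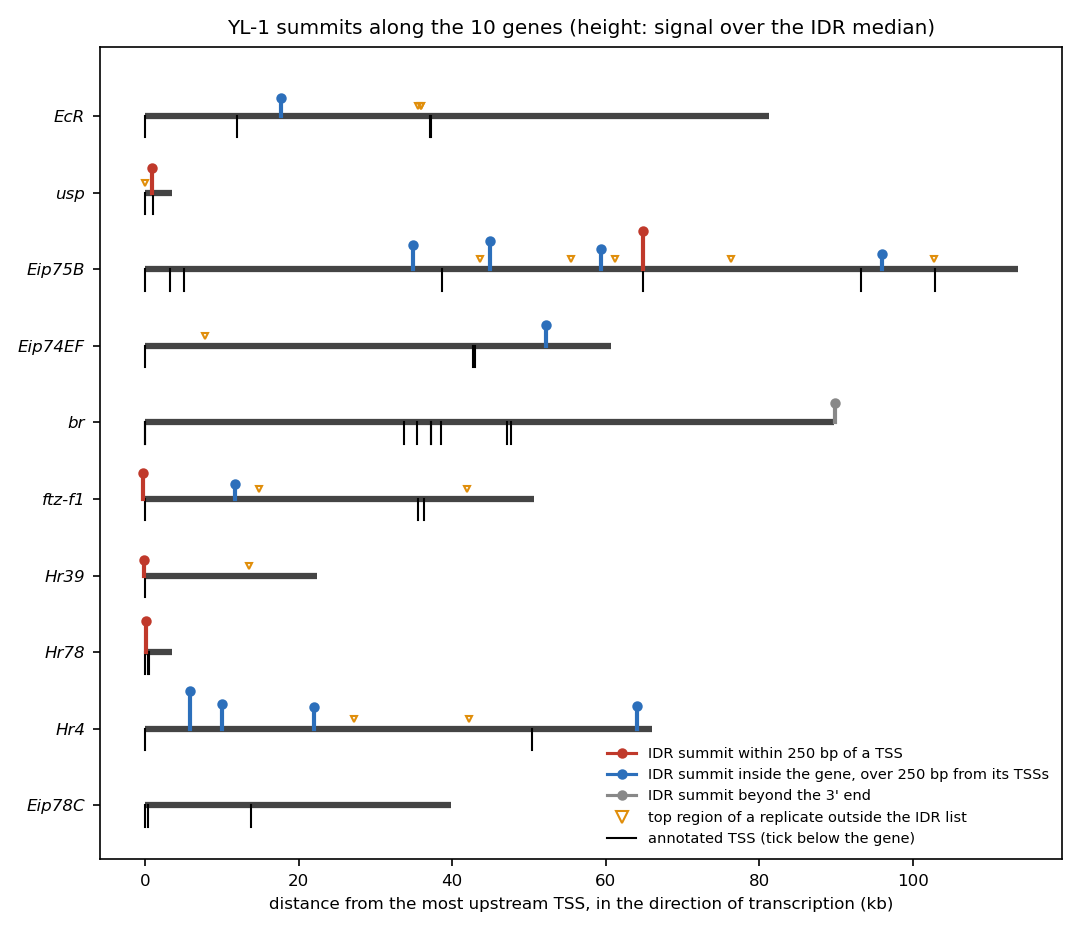
Maps of the 10 genes, drawn to scale from the most upstream TSS in the direction of transcription (x axis, kb). Black ticks below each bar are annotated TSSs, stems are IDR summits with a height proportional to relative signal (red within 250 bp of a TSS, blue internal, grey beyond the 3′ end), and open triangles are top regions of a replicate that overlap no IDR peak. Eip75B holds 5 stems and Hr4 holds 4, all 4 of them blue, while br and Eip78C hold none inside the gene.

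The receptor genes differed in where YL-1 lay. EcR encodes the hormone-binding partner of the receptor (2R, 6087873 to 6169087, minus strand, 4 TSSs). No TSS of EcR had an IDR summit within 250 bp, and the distance from a TSS to the nearest one ran from 5731 to 19557 bp. The peak in EcR had its summit at 6151398, in an intron 5731 bp downstream of the TSS of EcR-RD and EcR-RE. Its signal was 189, a relative signal of 0.866 at rank 3804, and in replicates 1, 2 and 3 the relative signal was 0.917, 0.695 and 0.863. It was therefore a peak of below-median strength that stood among the top regions of all 3 replicates. The nearest TSS of another gene, that of the transfer RNA gene tRNA:Asn-GTT-1-1, was 1278 bp away. A further intronic region of EcR, upstream of the TSS of EcR-RB and EcR-RC, was a top region in each replicate (ranks 4673, 4312 and 5791) and missed the IDR list, with rank 6156 in the list made from the pooled libraries. Its summits lay 1199 to 1557 bp from that TSS. At the start sites themselves the replicates held weak regions, the best at rank 6153 in replicate 1, 6133 in replicate 2 and 16050 in replicate 3.

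The gene usp encodes the fly ortholog of the retinoid X receptors (X, 2038798 to 2042311, minus strand, 2 TSSs), and it was bound at its inner start site. The summit at 2041456 lay 144 bp upstream of the TSS of usp-RA, in an intron of usp-RB, with a signal of 259, a relative signal of 1.19 and rank 2100. Relative signal was 0.643, 1.20 and 1.51 in replicates 1, 2 and 3, or 1.12 ± 0.440 (SD, n = 3). Replicate 1 was low, and with rank 6075 its region fell just outside the top 5986, whereas the others ranked 2022 and 1124. The outer TSS, that of usp-RB, was 855 bp from the IDR summit. Only replicate 2 had a top region there, at rank 5517 and 13 bp from the TSS, and replicates 1 and 3 had none among their top regions.

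Among the early genes, Eip75B carried the strongest start-site peak of the 10 genes and the most peaks in all. Eip75B encodes a haem-binding nuclear receptor related to the vertebrate Rev-erb proteins (3L, 17950953 to 18064696, minus strand, 7 TSSs). Of its 7 start sites only that of Eip75B-RC was bound, with a summit at 17999826, 5 bp upstream of the TSS. The signal was 400, a relative signal of 1.83 at rank 607. Relative signal in replicates 1, 2 and 3 was 1.70, 1.76 and 1.71 (1.72 ± 0.0343, SD, n = 3), with ranks of 790, 647 and 763. The replicates thus differed little at this site, less than at the other 15 peaks. For the other 6 TSSs the nearest IDR summit was 2694 to 34908 bp away. At the most downstream of these, the TSS of Eip75B-RD, replicate 1 had a top region 52 bp away at rank 4637, and the best regions of replicates 2 and 3 ranked 8219 and 11957.

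All 4 internal peaks of Eip75B lay in introns and were top regions in each replicate. The strongest had its summit at 18019810, 6222 bp downstream of the TSS of Eip75B-RG, with relative signals of 1.29, 0.896 and 1.42 in replicates 1, 2 and 3 and rank 1489 in the IDR list. The next, at 18029788, lay 3756 bp upstream of that TSS and had relative signals of 0.850, 1.19 and 1.22 (rank 2188). Below the median of the IDR list stood the peaks at 18005280, 5459 bp upstream of the TSS of Eip75B-RC (rank 3296), and at 17968745, 2694 bp downstream of the TSS of Eip75B-RA (rank 4840). No replicate was highest at all 4 of them. By the number of summits inside the gene and at its TSSs in the IDR list and the top regions of the 3 replicates, the protein-coding genes most like Eip75B were mod(mdg4), shn and tara. The summed absolute difference over these 4 lists was 5 for mod(mdg4), which has 7 IDR summits inside it, and 6 for shn, with 7, and for tara, with 5. Eip75B has 5, and 37 of the 13945 protein-coding genes have at least as many. These counts take no account of gene length. Per 10 kb, Eip75B held 0.440 IDR summits and Hr4 0.606. The density was 0.452 in all protein-coding genes and 0.150 in those of at least 20 kb.

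Eip74EF and br, the other early genes, had no bound start site. Eip74EF encodes an ETS-domain transcription factor (3L, 17558672 to 17619325, minus strand, 3 TSSs), and its IDR peak lay in an intron at 17567045, 9275 bp downstream of the TSS of Eip74EF-RD. The signal was 219, a relative signal of 1.00 and rank 2977. Replicate 3 was high at this peak, with a relative signal of 1.22 against 0.708 and 0.691 in replicates 1 and 2. The TSS of CycT, which encodes the cyclin of a transcription elongation kinase, was 9257 bp from the summit on the other side. At the start sites of Eip74EF the best regions ranked 8347 in replicate 1 and 26708 in replicate 3, both at the most upstream TSS, and replicate 2 listed none within 250 bp of any of the 3.

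The br gene encodes the Broad zinc-finger proteins (X, 1575132 to 1664869, plus strand, 9 TSSs) and was the emptiest of the early genes. No region of any kind in the pooled list or in the 3 replicate lists lay within 250 bp of any of its 9 TSSs. The nearest IDR summit to a br TSS was 42307 bp away. Inside the gene, the pooled list held 2 regions, the stronger at rank 15032, and the best regions of the replicates ranked 13079, 18920 and 13341. The peak nearest to br lay beyond its 3′ end, at 1665039 and 13 bp from the TSS of the neighbouring gene dor, at rank 3518. It was a top region in each replicate, at ranks 4914, 4255 and 3639, whereas the gene itself held nothing of that strength.

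ftz-f1 encodes a nuclear receptor of the SF-1 family, which acts with the segmentation protein Ftz in early embryos and as a competence factor for later ecdysone pulses (3L, 18750607 to 18801309, minus strand, 3 TSSs). Its most upstream start site, that of ftz-f1-RB, was bound. The summit at 18801529 lay 220 bp upstream of that TSS, near the edge of the 250 bp window, while the start of a non-coding gene, lncRNA:CR45939, was 217 bp away, so it could be counted for either gene. The signal was 269, a relative signal of 1.23 at rank 1917. Relative signal was 1.10, 1.39 and 1.01 in replicates 1, 2 and 3 (1.17 ± 0.199, SD, n = 3), above the median in all 3. The inner TSSs of ftz-f1 were 16342 and 17130 bp from the nearest IDR summit, and the only region within 250 bp of either ranked 25310, in replicate 1. An internal peak at 18789615, 11694 bp downstream of the TSS of ftz-f1-RB, was the weakest of the 16 (relative signal 0.705, rank 5153). It was a top region in replicate 1 alone, at rank 2407 against 6431 and 10966.

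Hr39 encodes the receptor most closely related to Ftz-f1 in the fly (2L, 21237250 to 21259675, plus strand, 1 TSS). Its summit at 21237114 lay 136 bp upstream of the TSS, with a signal of 167, a relative signal of 0.763 and rank 4617, the weakest of the start-site peaks. Of the start-site peaks it had the widest spread of ranks, with 9647 in replicate 1, 1711 in replicate 2 and 5571 in replicate 3. Relative signal was 0.447, 1.28 and 0.666, so only replicate 2 was above its median. The TSS of CG31626 was 381 bp from the summit.

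Hr78 encodes a nuclear receptor related to the vertebrate TR2 and TR4 orphan receptors (3L, 21494019 to 21497494, minus strand, 3 TSSs). A region 145 bp wide had its summit at 21497430, in the 5′ UTR, 64 bp downstream of the TSS shared by Hr78-RA, Hr78-RB, Hr78-RC and Hr78-RD. It also lay 247 bp from the TSS of Hr78-RE, so 1 peak gave Hr78 both of its bound TSSs, and 107 bp from the TSS of the antisense gene asRNA:CR43933, from which the files cannot separate it. The signal was 324, a relative signal of 1.48 at rank 1182. Relative signal was 1.31, 1.61 and 1.53 in replicates 1, 2 and 3 (1.48 ± 0.156, SD, n = 3). In each replicate the Hr78 start held a pair of top regions, with summits on either side of the IDR summit. The third TSS, that of Hr78-RF, was 489 bp from the IDR summit.

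Hr4 was occupied inside the gene and at neither start site. It encodes a nuclear receptor related to germ cell nuclear factor that represses early ecdysone-induced genes (X, 1941940 to 2007956, plus strand, 2 TSSs). The strongest of its 4 internal peaks, at 1947740, lay in an intron 5800 bp downstream of the TSS of Hr4-RC and 6 other transcripts, in a region 237 bp wide. Its signal of 398 (relative signal 1.82, rank 626) was close to that of the Eip75B start site. Relative signal was 1.36, 1.32 and 2.20 in replicates 1, 2 and 3 (1.63 ± 0.497, SD, n = 3), with replicate 3 the highest at rank 319. The others were in introns at 1951937 (relative signal 1.18, rank 2123) and 1963949 (1.02, rank 2864) and in the 3′ UTR at 2006014 (1.07, rank 2616). The first and last of these were top regions in every replicate, while that at 1963949 missed the top of replicate 2, with rank 7029. The nearest IDR summit to the upstream TSS lay outside the gene, 1682 bp upstream, and the TSS of Hr4-RE was 13714 bp from the 3′ UTR peak. At the start sites the best regions ranked 6665 in replicate 1 and 19937 in replicate 2, and replicate 3 listed none within 250 bp.

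Eip78C encodes a second receptor related to Rev-erb (3L, 21226609 to 21266503, plus strand, 3 TSSs). It had no IDR peak and no top region in any replicate. The best region inside it ranked 10347 in the pooled list and 8033, 19123 and 7221 in replicates 1, 2 and 3. Its TSSs were 9703 to 23441 bp from the nearest IDR summit, which lay outside the gene.

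**Figure D2:**
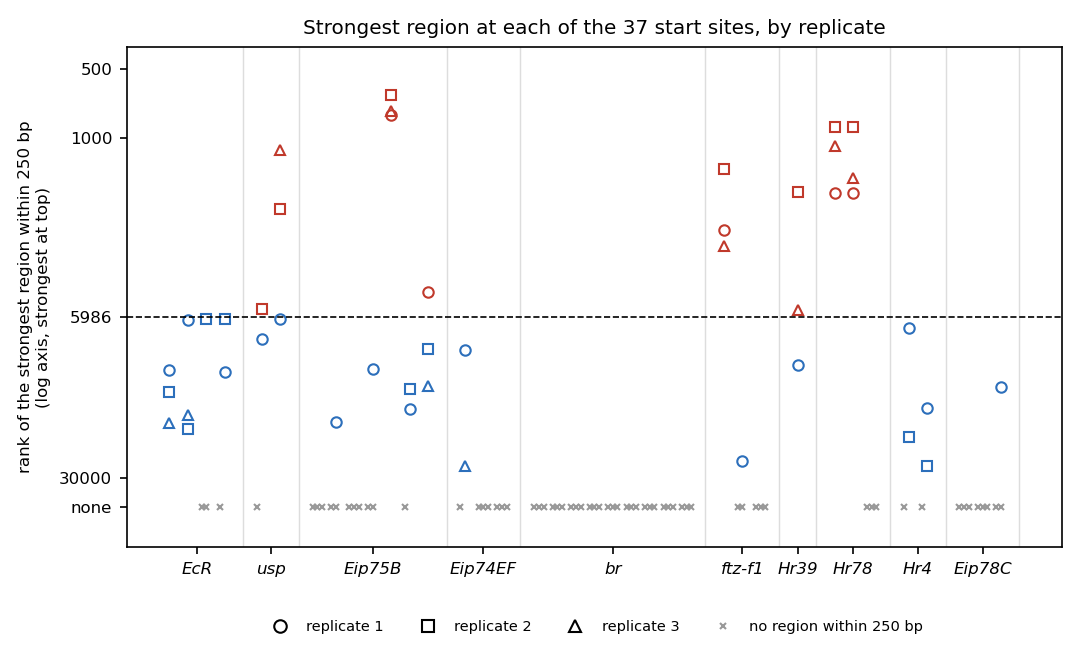
Rank of the strongest region within 250 bp of each of the 37 TSSs (log axis, rank 1 would be at the top), by replicate, with red symbols for top regions and blue symbols for weaker ones. The dashed line marks rank 5986, grey crosses mark TSSs with no listed region, and within a gene the TSSs run from upstream to downstream. The Eip75B-RC and Hr78 sites sit high in all 3 replicates, the usp-RA and Hr39 sites spread across the line, and all 9 br TSSs are crosses.

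Ordered by mean relative signal in the replicates, the start sites ran Eip75B (1.72), Hr78 (1.48), ftz-f1 (1.17), usp (1.12) and Hr39 (0.799). The replicate values of Eip75B lay above those of the other 4 genes without overlap. The ranges of Hr78 and ftz-f1 overlapped, but within each replicate Hr78 was the higher (1.31, 1.61 and 1.53 against 1.10, 1.39 and 1.01). The ranges of ftz-f1 and usp and of usp and Hr39 also overlapped, and there the order changed between replicates. The strongest internal peak, that of Hr4, spanned 1.32 to 2.20 and overlapped both Eip75B and Hr78. The median relative signal was 1.23 for the 5 start-site peaks and 1.02 for the 11 internal ones. Over all IDR peaks it was 1.05 for the 4371 at a protein-coding TSS and 0.866 for the 1615 away from one. Of the 11 internal peaks, 9 were top regions in every replicate (57.0% of all IDR peaks away from a TSS were), and of the 5 start-site peaks, 3 were (77.6% of all those at a TSS). The internal peaks lacking from some replicate were that of ftz-f1 and that at 1963949 in Hr4, and the start-site peaks were those of usp and Hr39, in both cases absent from the top of replicate 1.

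**Figure D3:**
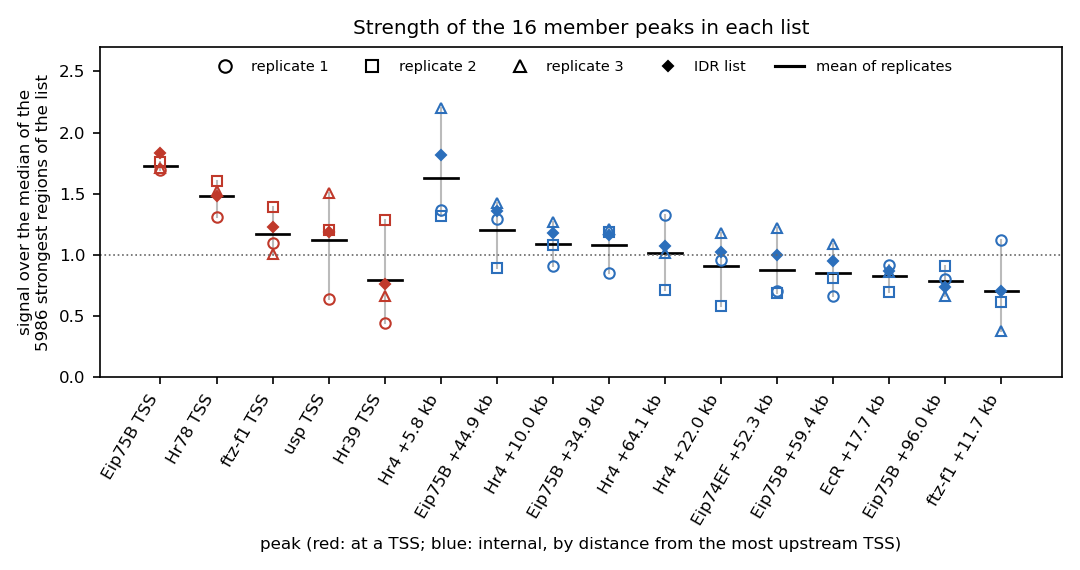
Relative signal (y axis, signal over the median of the 5986 strongest regions of the list) of the 16 peaks in each replicate (open symbols), in the IDR list (diamonds) and as the mean of the replicates (bars). Red peaks are at a TSS and blue peaks are internal, named by their distance from the most upstream TSS, and the dotted line is the median. Eip75B at its TSS runs from 1.70 to 1.76, while usp runs from 0.643 to 1.51 and Hr39 from 0.447 to 1.28.

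Counted by gene, the 10 genes were bound at about the share of genes with several start sites. Counted by TSS position, they lay below the share of all positions. More of the long members held internal peaks than long genes in general, though these members were also the longer. The share of bound genes was 5 of 10, against 33.4% of all protein-coding genes. It was 3 of 10 when replicate 2 or replicate 3 was left out and top regions common to the other replicates were used, where 28.3% and 27.7% of all genes were bound, and 2 of 10 with a window of 100 bp (23.6%). The 10 genes have more start sites than most, with a median of 3 TSSs against 1. Among genes with at least 2 TSS positions, 44.8% were bound, and 4 of the 9 such members were. Counted by position, 6 of the 37 TSSs were bound, against 28.3% of all TSS positions and no member but Hr78 had more than 1 bound TSS. The 37 include the 9 TSSs of br, all unbound, and 1 peak gave both bound TSSs of Hr78. In the top regions of replicates 1, 2 and 3, 3, 5 and 5 members were bound (4.33 ± 1.15, SD, n = 3), at 5, 7 and 6 TSSs, while 32.8%, 31.3% and 32.3% of all genes were. The missing members of replicate 1 were usp and Hr39. If all 30000 pooled regions were used, 16 of the 37 TSSs had a region within 250 bp (43.2%), against 47.8% of all TSSs.

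Internal peaks were found in 5 of the 10 genes, against 7.33% of protein-coding genes. The members are long, with a median length of 55.7 kb against 2.17 kb, so long genes are the closer comparison. Of genes of at least 20 kb, 28.7% had an internal summit, and 5 of the 8 members of that length did. In these 8 members the density of internal summits was 0.210 per 10 kb, against 0.106 in all 1013 genes of that length. The pooled list gave 3.09 internal summits per 10 kb in these 8 members, against 1.42 in all genes of that length. In the replicates, 6, 4 and 4 members had an internal summit among the top regions, which held 18, 12 and 14 such summits in all. The share of long genes with one was 27.2%, 27.4% and 32.6%. Of the 11 internal summits in the IDR list, Eip75B and Hr4 held 8, and EcR, Eip74EF and ftz-f1 held 1 each. The density in the IDR list thus rests mainly on Eip75B and Hr4. In the pooled list the internal summits were spread over more members, with 54 in Eip75B, 30 in EcR, 25 in ftz-f1 and 24 in Hr4.

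Promoter motifs at the start sites of the 10 genes were compared with those at all TSSs. Motifs were sought on both strands from 250 bases before to 50 bases after each TSS, 300 bases in all, and a match describes letters, not binding. Windows of neighbouring TSSs of a gene overlap in places, as in EcR and br, so the same letters can be counted at several TSSs. The DNA replication-related element (DRE, TATCGATA) occurred at 0 of the 37 member TSSs, 7.98% of all TSSs and 18.1% of all bound TSSs. The core of the core-promoter element called motif 1 (GGTCACACT) occurred at 1 member TSS, that of Hr78-RA, with the match beginning at base 5 after the TSS, as printed with the other sequences. It occurred at 5.23% of all TSSs, so the share over the 37 member TSSs was near the background. Among bound TSSs it was at 1 of 6 for the members and 14.1% for all genes, and the DRE was at 0 of 6. The E-box CAGCTG was found at 9 of the 37 (24.3%, against 17.9% of all TSSs), among them the bound TSSs of Eip75B-RC, Hr78-RE and ftz-f1-RB. These were 3 of the 6 bound member TSSs, and the E-box was at 25.6% of all bound TSSs. The TATA letters TATAAA were found at 8 (21.6%, against 42.2%), and TCAGT, the core of the initiator, at 20 (54.1%, against 52.1%). GAGAG, the core recognised by GAGA factor, was found at 20 (54.1%, against 33.1%). It was at 17 of the 31 unbound member TSSs and at 3 of the 6 bound ones. Over all genes it was at 36.5% of unbound and 24.7% of bound TSSs. The windows of the member TSSs had a median GC content of 47.3%, against 39.3% for all TSSs and 40.2% for the 6 bound member TSSs. Its part in the motif shares was not tested.

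Letters of receptor binding sites were sought in the same windows. The core site of nuclear receptors, AGGTCA, was at 0 of the 37 member TSSs and 5.68% of all TSSs. The longer site TCAAGGTCA, which holds that core and is bound by monomeric receptors of the Ftz-f1 type, was at 0 of 37 and 0.168% of all. The exact inverted repeat of the core spaced by 1 base, an idealised form of the element bound by EcR and Usp, was at none of the 19607 TSSs. In 300 bases around the summits, the core occurred at 1 of the 11 internal peaks, that of Eip74EF, where it reads TGACCT on the plus strand, and at 5.14% of all IDR peaks away from a TSS. GAGAG occurred at 5 of the 11, against 44.5%. The DRE was absent from the ftz-f1 TSS window and stood at the ftz-f1 summit, 68 bases from it, at the start of the printed stretch. It occurred at 13.5% of all IDR peaks at a TSS and 0.991% of the others.

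Genes that act around the receptors were counted with 6 further lists, and the most often bound list was that of receptor partners and coregulators, with 11 of 14 matched genes against 33.4% of all genes. Its strongest peaks were at Hsp83, the fly Hsp90 chaperone that the receptor complex needs (signal 869, rank 23), and E(bx), the largest subunit of the nucleosome remodelling factor NURF (signal 411, rank 554). They were followed by bon, a TIF1-family cofactor of nuclear receptors (signal 380, rank 729), nej, the CBP acetyltransferase (signal 369, rank 816), and trr, a histone methyltransferase that acts with EcR (signal 362, rank 863). These 5 were bound in each replicate. In replicates 1, 2 and 3, 9, 12 and 9 of the 14 were bound, against 32.8%, 31.3% and 32.3% of all genes. The unbound members were rig, Utx and the corepressor gene Smr, which held 3 internal summits.

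The lists for the supply of hormone held few bound genes. Of 12 genes for the synthesis, breakdown and import of ecdysteroids, 1 was bound, the importer gene Oatp74D, close to the IDR threshold (signal 138, rank 5959, top regions in 2 replicates). None of the matched P450 genes of synthesis (spo, spok, dib, sad and shd) was bound. Of 6 genes that control synthesis, such as Ptth and its receptor gene tor, 0 were bound. The share to set beside both lists is 33.4%, that of all protein-coding genes. In replicates 1, 2 and 3 the bound counts were 1, 2 and 1 of 12 and 0, 1 and 0 of 6. The matching shares of all protein-coding genes were 32.8%, 31.3% and 32.3%.

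Of 13 other nuclear receptor genes, 1 was bound, Hr96, a xenobiotic and lipid sensor (signal 508, rank 241, bound in each replicate). Hr3, which activates ftz-f1 after an ecdysone pulse, had 4 internal summits and Hnf4 had 3, without a bound start site, and Hr96 had 1. Internal summits were found in 7.33% of all protein-coding genes and 28.7% of those of at least 20 kb. In the replicates 1, 2 and 1 of the 13 were bound. The share of all protein-coding genes with a bound start site, to be set beside each list of this paragraph, was 33.4%. It was 32.8%, 31.3% and 32.3% in replicates 1, 2 and 3. Of 26 other ecdysone-induced or puffing genes, 6 were bound, and 4, 4 and 6 were in the replicates. They were the transporter gene E23 (signal 533, rank 206, summit exactly 250 bp from the TSS), the lactate dehydrogenase gene Ldh (374, rank 780, bound in 1 replicate), the caspase gene Dronc (302, rank 1430), the kinase gene Eip63E (262, rank 2042), the zinc-finger gene crol (244, rank 2428) and vri (166, rank 4667). The Sgs glue genes, Eip93F, Blimp-1, rpr and hid were not bound. Of 9 genes of the juvenile hormone response, 1 was bound, the epoxide hydrolase gene Jheh1 (signal 194, rank 3639, bound in each replicate). The receptor genes Met and gce had 1 internal summit each and no bound start site. The genes kni and Kr-h1 each belong to 2 of the lists and were bound in neither.

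**Figure D4:**
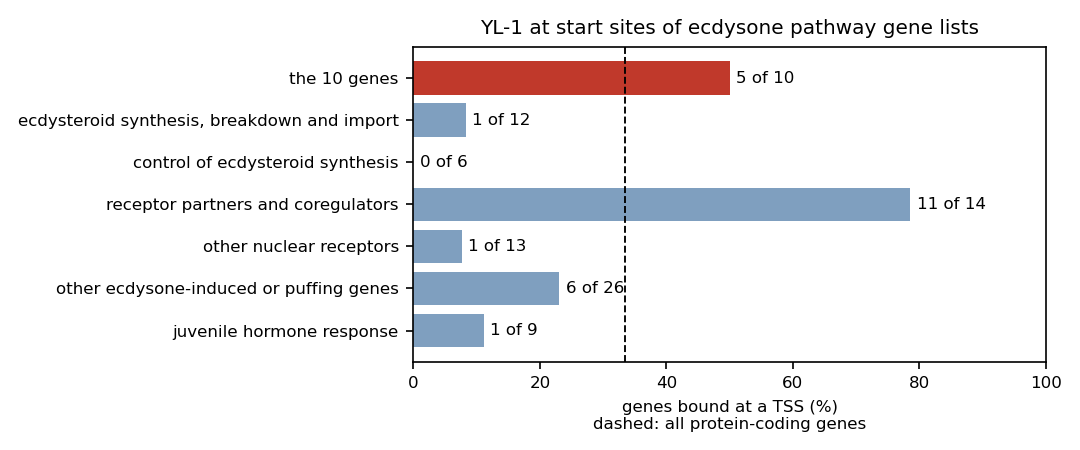
Percentage of genes bound at a TSS in the IDR list (x axis, 0 to 100%) for the 10 genes (red) and 6 lists of related genes (blue), with the number bound of the number matched. The dashed line is the 33.4% of all protein-coding genes. Receptor partners and coregulators (11 of 14) lie to the right of it, and synthesis genes (1 of 12), genes that control synthesis (0 of 6) and other nuclear receptors (1 of 13) lie to the left.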

How the data were processed

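ChIP-seq for GFP-tagged YL-1 was done on 3 replicates, per the labels, with chromatin sheared by sonication to 200 to 800 bp. The dm6 narrowPeak lists were used, 1 per replicate, 1 for the pooled libraries and 1 thresholded by IDR. Per the layout of the deposited files, each region has a signal value on the authors' scale, the −log10 of a q-value, which was not used here, and a summit offset in bp. Which aligner and peak caller were used is not given in the sources used here. Control libraries and the dm3 lists were not analysed here. Because no read counts are given, no counting error could be set on a signal.

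Summits (region start plus offset, 1-based) were compared with the TSSs of the Ensembl 115 annotation (Release 6 assembly), and sequence came from the RefSeq copy of Release 6. The members, gene lists and rules were chosen with earlier results of these data known. The limit of 20 kb for long genes and the windows around summits were set after seeing the data. Named are the members, genes sharing a member's start-site window, up to 10 bound genes of each list (otherwise the 5 strongest) and the 3 genes most like the member with most summits. Nearest neighbours, unbound list genes and the genes of the closing observations were named after their values were seen. Unmatched symbols were phm, Alien, DOR, Rpd3, Eip71CD, Eip55E, Eip63F-2 and FAMeT, which were not used here. The steps were tested on simulated data. Python 3.11.15, numpy 2.4.6, pandas 2.3.3 and matplotlib 3.10.9 were used. Other settings tried were TSS windows of 100, 500 and 1000 bp, region middles or any part of a region, peaks above the median signal, the whole pooled list, regions shared by replicates, replicates left out, joined peaks, the nearest TSS only and the RefSeq annotation.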

Additional observations from a re-analysis of the deposited data

How the results depend on the processing

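The number of bound members was 5, at 6 TSSs, and 33.4% of all genes were bound. It was 2, at 2 TSSs, with a window of 100 bp (23.6% of all genes) and 5 with windows of 500 and 1000 bp (37.6% and 40.8%). In the whole pooled list, of 30000 regions, it was 9, at 16 TSSs, with 172 summits in member spans against 14 and 52.2% of all genes bound. Top regions shared by all 3 replicates gave 3 (25.5%), and 3 with an overlap of 50% of each region (21.9%). Regions shared when a replicate was left out gave 3 to 5 members and 27.6% to 28.3% of all genes. It was 5 without replicate 1, and 3 without replicate 2 and without replicate 3. All genes came to 37.1% with any part of the region, 28.0% with the nearest TSS only (4 members, since ftz-f1 then went to lncRNA:CR45939), 32.2% with overlapping peaks joined and 20.9% with peaks above the median signal (4 members). Eip75B and Hr78 were bound under all 15 alternatives, ftz-f1 under 13, usp under 10 and Hr39 under 9. EcR, Eip74EF, Eip78C and Hr4 were bound in the whole pooled list only, and br under none. No paired analysis was possible because the series has 1 group. Depth is unknown, so an absent peak is not shown to be an absence of YL-1.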

Other observations

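Several genes of the 6 lists were bound in the top regions of a replicate and not in the IDR list, which the counts above leave out. Npc1a, which moves cholesterol out of lysosomes for steroid synthesis, was bound in 2 of the 3 replicates. The zinc-finger gene mld, the receptor gene ERR, the coactivator gene rig and the demethylase gene Utx were each bound in 1. In the other direction, Sin3A and MED24 were in the IDR list and bound in 1 replicate, Sin3A at rank 5855 and MED24 at rank 4714.

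Internal summits in the lists were most numerous in the corepressor gene Sin3A, with 5, and in Hr3, with 4. The EcR coactivator gene tai, the corepressor gene Smr, crol and Hnf4 had 3 each, and nej, Eip63E and the insulin-binding protein gene ImpL2 had 2. Of the 14 receptor partners and coregulators, 8 had an internal summit, against 7.33% of all protein-coding genes and 28.7% of those of at least 20 kb. The lengths of the listed genes were not compared.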
